A study of Homo sapiens with 12 samples.

Results

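The cluster of miR-302 and miR-367 is a run of 5 hairpins on chromosome 4, each of which can give a mature miRNA from its 5p arm and another from its 3p arm. Its members were chosen by name, as both arms of hsa-miR-302a, hsa-miR-302b, hsa-miR-302c, hsa-miR-302d and hsa-miR-367, and come to 10 of the 1133 miRNA entries in the count table, 5 from 3p arms and 5 from 5p arms. The study sequenced small RNA from extracellular vesicles (EV), the membrane particles that cells shed, taken from culture medium while a human induced pluripotent stem cell (hiPSC) line became cardiomyocytes. There were 4 EV groups of 3 libraries, 12 in all, and the 3 libraries of a group came from independent cultures. The RNA of the vesicles was sequenced and that of the cells was not, so a level below is a level in EV.

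All groups derive from iPS(IMR90)-4, an established line reprogrammed from lung fibroblasts, so every library has the genome of 1 line. hiPSC-EV were collected at day 0, after 24 h in the expansion medium TeSR-E8. CPC-EV, from cardiac progenitor cells, were collected at day 6, after 72 h in RPMI with B27 lacking insulin. The cells had by then received CHIR99021, Activin A and ascorbic acid, followed by the Wnt inhibitor IWR-1. CMi-EV, from immature cardiomyocytes, were collected at day 15 from suspended aggregates, after 48 h in RPMI with B27. CMm-EV, from metabolically matured cardiomyocytes, were collected at day 35, after 48 h in a medium without glucose that held galactose, oleic acid and palmitic acid. Day and medium therefore changed together with the stage of the cells. Hours of collection did too, except between CMi-EV and CMm-EV, which were both collected after 48 h. The parts of what changed in a difference between groups cannot be told apart. The miRNA counts per library ran from 703418 in hiPSC-EV 1 to 6272456 in CMm-EV 2.

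A mature miRNA guides an Argonaute protein to messenger RNAs that pair with its seed, a short stretch near the 5′ end, and lowers their output. The hairpins of this cluster are processed from a shared primary transcript that is made in human pluripotent cells, where OCT4, SOX2 and NANOG occupy its promoter, and that is silenced as cells differentiate. The miR-302 3p arms target inhibitors of the cell cycle and of reprogramming, such as CDKN1A, and members of TGF-beta signalling, such as LEFTY, while the seed of miR-367-3p belongs to the miR-25/92 family.

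Mature sequences are shown because both the shared targets and the shared reads of the members follow from them. They are RefSeq sequences of build GRCh38.p14, which held all 10 members and 985 of the 1133 entries. Capitals mark the seed, bases 2 to 8. The first 4 lines share the seed AAGUGCU, and hsa-miR-372-3p from another cluster has it too.
hsa-miR-302a-3p: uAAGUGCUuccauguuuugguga
hsa-miR-302b-3p: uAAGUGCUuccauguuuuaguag
hsa-miR-302c-3p: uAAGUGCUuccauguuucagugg
hsa-miR-302d-3p: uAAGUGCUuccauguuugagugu
hsa-miR-372-3p: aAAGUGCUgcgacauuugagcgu
The next pair share a different seed, that of the miR-25/92 family.
hsa-miR-367-3p: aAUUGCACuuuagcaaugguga
hsa-miR-92a-3p: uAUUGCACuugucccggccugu
The 5p arms carry seeds of their own, with CUUUAAC in both hsa-miR-302b-5p and hsa-miR-302d-5p. No other entry with a RefSeq sequence has a seed of these 5p arms.
hsa-miR-302a-5p: aCUUAAACguggauguacuugcu
hsa-miR-302b-5p: aCUUUAACauggaagugcuuuc
hsa-miR-302c-5p: uUUAACAUggggguaccugcug
hsa-miR-302d-5p: aCUUUAACauggaggcacuugc
hsa-miR-367-5p: aCUGUUGCuaauaugcaacucu

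The 4 miR-302 3p arms are 23 bases long, begin with the same 17 bases, and match at 20 or 21 of 23 positions in each pair. A read that lacks its last bases can therefore belong to several of them. The authors' counts are expected values in which such reads may be shared out, and fractions appeared on 4 of the 10 members. hsa-miR-302c-3p and hsa-miR-302d-3p had a fractional value in 8 libraries each, hsa-miR-302b-3p in 7 and hsa-miR-302a-3p in 3, while no 5p arm had one. How much of the 3 lower 3p members is reads of hsa-miR-302b-3p was not tested.

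The hairpins lie at chr4:112647874-112648557 of GRCh38.p14 on the minus strand, 684 bases from the first to the last, in the order hsa-mir-302b, hsa-mir-302c, hsa-mir-302a, hsa-mir-302d, hsa-mir-367 along the transcript. Gaps of 54, 111, 111 and 62 bases separate them. They lie on the strand of the long noncoding RNA MIR302CHG, where hsa-mir-302b overlaps an exon in 2 of 5 annotated transcripts and each of the others in 1 of 5. On the opposite strand they sit in introns of LARP7 in 29 of 29 transcripts. The hairpins hsa-mir-302a and hsa-mir-302b are shown, with the mature arms in capitals, because the most abundant members come from the 5p arm of the former and the 3p arm of the latter. They lie at chr4:112648183-112648251 and chr4:112648485-112648557, both on the minus strand.
hsa-mir-302a: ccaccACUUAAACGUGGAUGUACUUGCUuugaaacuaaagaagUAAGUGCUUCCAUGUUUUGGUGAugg
hsa-mir-302b: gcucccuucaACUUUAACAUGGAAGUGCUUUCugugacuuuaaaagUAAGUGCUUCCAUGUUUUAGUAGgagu

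Because the members share 1 primary transcript, the RefSeq promoter of MIR302CHG at chr4:112650002-112650301 (GRCh38.p14, minus strand) is shown, with capitals on the octamer ATGCAAAT, which OCT4 is known to bind. The octamer was searched on both strands and occurred once in these 300.0 bases. Of 35116 RefSeq promoters of that length, 623 (1.77%) held it. The promoter of a second MIR302CHG start, at chr4:112648654-112648953, held none. A match says only that these letters are there.
MIR302CHG promoter: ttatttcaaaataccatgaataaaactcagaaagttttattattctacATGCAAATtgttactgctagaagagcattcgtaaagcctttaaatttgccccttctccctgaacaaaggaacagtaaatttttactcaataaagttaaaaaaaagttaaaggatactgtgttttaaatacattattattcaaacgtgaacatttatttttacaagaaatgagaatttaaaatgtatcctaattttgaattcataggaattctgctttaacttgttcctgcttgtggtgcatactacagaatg

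Together the members made up a mean of 32.4% of all miRNA counts in hiPSC-EV and almost none in CMm-EV. The cluster's percentage of miRNA counts was 33.9, 31.4 and 31.8 in hiPSC-EV 1, 2 and 3 (SD 1.30, n = 3). In CPC-EV it was 26.6, 35.9 and 18.5 (26.98 ± 8.72), a range that spans the hiPSC-EV values. In CMi-EV it was 1.44, 1.54 and 0.902 (1.29 ± 0.343), and in CMm-EV it was 0.0609, 0.0288 and 0.0237 (0.0378 ± 0.0202). CMi-EV lay below every earlier library and CMm-EV below every CMi-EV library. The exact (Clopper-Pearson) 95% interval was 33.8% to 34.0% in hiPSC-EV 1 and 0.0561% to 0.0660% in CMm-EV 1. These libraries hold PCR reads without molecular identifiers, so intervals and detection floors given here cover counting error only. In bulk RNA of pooled vesicles, fewer vesicles from cells that make the cluster and less of it in each vesicle cannot be told apart.

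Of the 10 members, hsa-miR-302b-3p and hsa-miR-302a-5p had the most counts in 12 of 12 libraries. By group mean they together held 96.8%, 97.6%, 95.9% and 94.6% of the cluster's counts, in the order of the stages. hsa-miR-302b-3p ranked 1 among all miRNA in each hiPSC-EV library, 3 to 5 in CPC-EV, then 23 to 29 in CMi-EV and 93 to 159 in CMm-EV. hsa-miR-302a-5p ranked 2 to 3, 1 to 3, 19 to 27 and 83 to 85 in the same order. The stacked bars of the cluster's share show these members as nearly the whole bar at every stage.

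**Figure D1:**
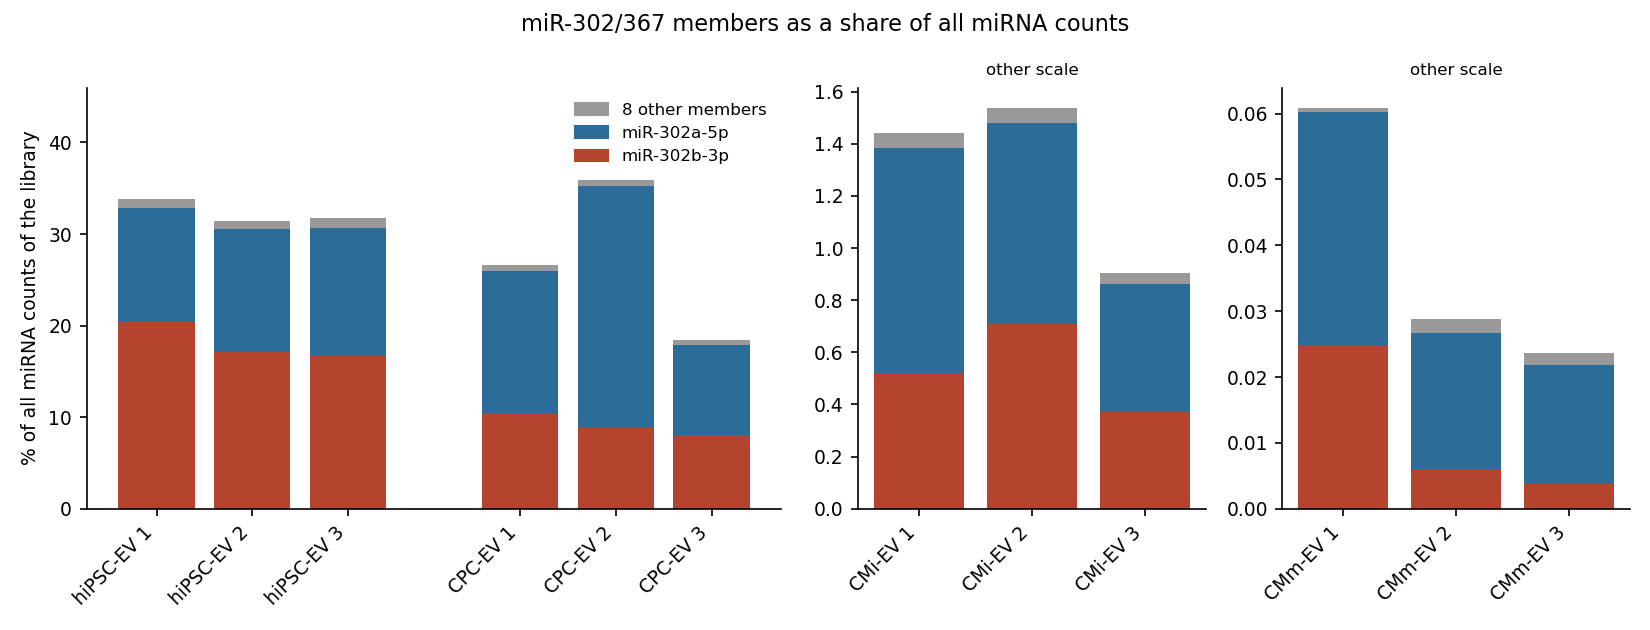
Percent of all miRNA counts taken by hsa-miR-302b-3p (red), hsa-miR-302a-5p (blue) and the 8 other members together (grey), 1 stacked bar per library, in 3 panels that have scales of their own. The bars reach 35.9% in CPC-EV 2 and stay at or under 0.0609% in CMm-EV.

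Levels of single members are given as CPM, a read count set against the library's total of miRNA counts, with totals scaled by the TMM method over all 12 libraries. The floor, the CPM that 3 counts would give, ran from 0.638 in hiPSC-EV 3 to 3.63 in CMm-EV 1. hsa-miR-302b-3p, the most abundant carrier of the AAGUGCU seed, stood at 165756, 170784 and 198611 CPM in hiPSC-EV and at 67246, 73568 and 46152 CPM in CPC-EV. It stood at 4944, 6249 and 3654 CPM in CMi-EV and at 294, 96.8 and 76.3 CPM in CMm-EV. Each group lay below the one before it with no overlap, at means of 178384 ± 17697, 62322 ± 14356, 4949 ± 1297 and 156 ± 120 CPM (SD, n = 3 each).

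hsa-miR-302a-5p, from the opposite arm of another hairpin, stood at 101384, 133139 and 166094 CPM in hiPSC-EV and at 99449, 220797 and 56029.8 CPM in CPC-EV. The CPC-EV libraries were spread widely and overlapped hiPSC-EV on both sides, with means of 133539 ± 32357 CPM in hiPSC-EV and 125425 ± 85399.6 CPM in CPC-EV. It stood at 8215, 6816 and 4832 CPM in CMi-EV and at 424, 345 and 377 CPM in CMm-EV, means of 6621 ± 1699.9 and 382 ± 39.6 CPM. Those later groups overlapped neither each other nor the earlier ones.

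Both arms of hsa-miR-302c came next in hiPSC-EV. hsa-miR-302c-3p stood at 3721, 4386 and 7306 CPM in hiPSC-EV, 1563, 2198 and 1284 in CPC-EV. It stood at 203, 278 and 104 CPM in CMi-EV and at 6.05, 0 and 21.2 CPM in CMm-EV. hsa-miR-302c-5p stood at 1896, 1642 and 1992 CPM in hiPSC-EV, 650.2, 787 and 432 in CPC-EV, and 44.4, 91.6 and 38.3 in CMi-EV, with no count in CMm-EV. For both arms, no group overlapped the one before it.

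The other 3p arms of the AAGUGCU seed came after these in hiPSC-EV. hsa-miR-302a-3p had means of 1403 ± 469 CPM in hiPSC-EV and 853 ± 398 CPM in CPC-EV. Its mean was 125 ± 33.0 CPM in CMi-EV and 17.4 CPM in CMm-EV, where the libraries ran from 0 to 35.95 CPM. hsa-miR-302d-3p had means of 934 ± 432, 599 ± 312 and 86.6 ± 54.2 CPM in hiPSC-EV, CPC-EV and CMi-EV, and a single count in the whole of CMm-EV. For both members the hiPSC-EV and CPC-EV ranges overlapped, and CMi-EV lay below them.

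The remaining members were the least abundant. hsa-miR-302d-5p had means of 808 ± 221 CPM in hiPSC-EV, 402 ± 125 in CPC-EV and 19.3 ± 17.9 in CMi-EV, and no count in CMm-EV. hsa-miR-302b-5p had 123 ± 39.3 CPM in hiPSC-EV and 102 ± 44.2 in CPC-EV, no count in CMi-EV and 1 count in CMm-EV. hsa-miR-367-3p, the carrier of the miR-25/92 seed, stood at 227, 197 and 259 CPM in hiPSC-EV, 12.2, 153 and 75.2 in CPC-EV, and 21.98 in CMi-EV 2, with no count in the other CMi-EV libraries or in CMm-EV. hsa-miR-367-5p had 10 counts in hiPSC-EV 3 (2.13 CPM) and none in the 11 other libraries.

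In the panels of the 5 hairpins, the arm with more counts differs from hairpin to hairpin, and open triangles gather in CMm-EV. Of 30 member values per group, 2 were 0 in hiPSC-EV and 3 in CPC-EV, against 9 in CMi-EV and 18 in CMm-EV. By mean CPM the order in hiPSC-EV was hsa-miR-302b-3p, hsa-miR-302a-5p, hsa-miR-302c-3p, hsa-miR-302c-5p, hsa-miR-302a-3p, hsa-miR-302d-3p, hsa-miR-302d-5p, hsa-miR-367-3p, hsa-miR-302b-5p and hsa-miR-367-5p. Neighbours in that order had overlapping ranges for hsa-miR-302b-3p with hsa-miR-302a-5p and for the run from hsa-miR-302c-5p to hsa-miR-302d-5p. In CPC-EV hsa-miR-302a-5p came before hsa-miR-302b-3p, hsa-miR-302a-3p before hsa-miR-302c-5p and hsa-miR-302b-5p before hsa-miR-367-3p, each with overlapping ranges. The order of the leading members in CMi-EV was that of CPC-EV, again with overlapping ranges, while in CMm-EV hsa-miR-302a-5p lay above hsa-miR-302b-3p with no overlap.

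The comparison of CPC-EV with hiPSC-EV asks what the vesicles lost over the first 6 days, when cells leave pluripotency. Members from 2 of the 5 hairpins fell more than 2-fold, and the others did not pass the test, among them hsa-miR-302a-5p. hsa-miR-302b-3p fell by 1.11 on the log2 scale (SE 0.18, adjusted p 0.00461), a 2.16-fold drop. hsa-miR-302c-3p fell by 1.20 (SE 0.27, adjusted p 0.0130) and hsa-miR-302c-5p fell by 1.17 (SE 0.25, adjusted p 0.0109). In each of the 3, every CPC-EV library lay below every hiPSC-EV library. That was also so for hsa-miR-302d-5p and hsa-miR-367-3p, which were not called. For hsa-miR-302d-5p it held in CPM scaled over the 12 libraries but not in shares of the unscaled totals. CPC-EV 1 had 1409 of 1680160 miRNA counts, a larger share than the 2777 of 5598319 in hiPSC-EV 3. Log2 fold changes come from fits scaled within the 6 libraries compared, so they differ from ratios of the CPM above. For hsa-miR-302a-5p and hsa-miR-302b-5p the sign differs too, with a log2 fold change above 0 and a lower mean CPM in CPC-EV. How many of all tested miRNA lacked overlap is not given, here or for the later comparisons. Lack of overlap therefore describes the members and does not set them apart from other miRNA.

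A miRNA was tested if some group had all 3 libraries at 5 CPM or more, and called at an adjusted p of at most 0.05 if its log2 fold change was 1 or more in size. Of the 10 members, 9 were tested here and 3 were called lower, where 16.0% of the 338 tested miRNA were called lower. The median log2 fold change was -0.59 over the 9 members and -0.27 over all tested. All 9 had more than 5 CPM in every library of both groups. hsa-miR-302a-5p had a log2 fold change of 0.29 (SE 0.40, adjusted p 0.662). hsa-miR-367-3p had -1.15 (SE 0.75, adjusted p 0.316), with CPC-EV 1 at 12.2 CPM far below the others and a range of -1.87 to -0.61 with a library left out. The 4 remaining tested members had values from -0.59 for hsa-miR-302d-5p to 0.21 for hsa-miR-302b-5p, with adjusted p from 0.304 to 0.802.

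The calls of this first step sat near the size threshold. hsa-miR-302b-3p had -0.99 with median-of-ratios scaling, with library size alone and with DESeq2, and without CPC-EV 3 none of the 3 was called, although their log2 fold changes stayed negative, at -0.92 for hsa-miR-302b-3p, -1.03 for hsa-miR-302c-3p and -0.94 for hsa-miR-302c-5p. hsa-miR-302c-3p also lost its call without hiPSC-EV 3 (-0.90) and without CPC-EV 1 (adjusted p 0.0800, over a range of 0.000199 to 0.343 in 13 alternatives). With dispersions from all 12 libraries hsa-miR-302b-3p and hsa-miR-302c-3p lost their calls, and hsa-miR-302c-5p was still called.

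The step from CPC-EV to CMi-EV compares progenitors with immature cardiomyocytes. hsa-miR-302a-5p fell by 4.21 on the log2 scale (SE 0.48, adjusted p 0.00187), an 18.5-fold drop, and hsa-miR-302b-3p fell by 3.66 (SE 0.28, adjusted p 0.000302), a 12.6-fold drop. hsa-miR-302c-3p fell by 3.10 (SE 0.39, adjusted p 0.00193), hsa-miR-302c-5p fell by 3.43 (SE 0.42, adjusted p 0.00193) and hsa-miR-302a-3p fell by 2.75 (SE 0.42, adjusted p 0.00350). hsa-miR-302b-5p went to no count in CMi-EV, at least 47.2-fold lower than its CPC-EV mean when set against the highest floor of a CMi-EV library (adjusted p 0.00435). In each of these every CMi-EV library lay below every CPC-EV library.

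Of 9 tested members 8 were called lower, where 14.0% of the 292 tested miRNA were, and the median was -3.43 over the members and -0.05 over all tested. hsa-miR-302b-5p, hsa-miR-302d-5p and hsa-miR-367-3p passed the filter through CPC-EV alone, so that low values in CMi-EV were no bar to them. In this and the later comparisons neither the count nor the median is therefore support for a change of the cluster. The same holds for counts and medians of other lists below wherever entries passed the filter through a single group. This step and the first share the CPC-EV libraries. hsa-miR-302d-3p fell by 2.77 (SE 0.64, adjusted p 0.0214) and hsa-miR-302d-5p fell by 4.43 (SE 1.16, adjusted p 0.0412). hsa-miR-367-3p had -3.42 (SE 1.90, adjusted p 0.294) and overlapped between the groups, since CMi-EV 2 held 21.98 CPM against 12.2 CPM in CPC-EV 1. Single libraries could end the calls of both arms of hsa-miR-302d: the 3p arm lost its call without CPC-EV 1, CPC-EV 2 or CMi-EV 1 (adjusted p 0.0524, 0.0752 and 0.0505, in a range of 7.74e-05 to 0.0752 over 13 alternatives), and the 5p arm lost it without any 1 library except CMi-EV 2 (adjusted p up to 0.144, from 7.66e-05). The log2 fold change of the 5p arm ran from -5.09 to -3.84 over the 6 fits with a library left out. With all libraries kept, the 5p arm also lost its call under the filterByExpr filter. Without CMi-EV 2, hsa-miR-367-3p had no count left in CMi-EV and was called (adjusted p 0.0254, in a range up to 0.532), while its log2 fold change reached -2.56 with another library left out. Without CPC-EV 2 the log2 fold change of hsa-miR-302a-5p was -3.55.

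From CMi-EV to CMm-EV, the step of metabolic maturation, the leading members fell again. hsa-miR-302b-3p fell by 5.20 on the log2 scale (SE 0.49, adjusted p 0.00110), a 36.8-fold drop, and hsa-miR-302a-5p fell by 4.30 (SE 0.22, adjusted p 5.52e-05), a 19.7-fold drop. hsa-miR-302c-5p went to no count, at least 16.0-fold lower (adjusted p 0.0127). hsa-miR-302d-3p went from 475 counts in CMi-EV to 1 in CMm-EV, a ratio of 602 with a 95% counting interval of 108 to 23829.8 (adjusted p 0.0159). That ratio rests on 1 count in CMm-EV 1, without which CMm-EV holds none, and the fitted log2 fold change of -8.57 reached -7.68 with another library left out. No CMm-EV library reached a CMi-EV library in any of the 4.

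Of the 6 members tested, 4 were called lower, where 10.1% of the 247 tested miRNA were. The median was -4.89 over the 6, or -4.44 with hsa-miR-302c-5p at its bound, and -0.29 over all tested. Only hsa-miR-302b-3p and hsa-miR-302a-5p passed the filter in both groups. hsa-miR-302a-3p had -2.96 (SE 1.24, adjusted p 0.199) and hsa-miR-302c-3p had -4.58 (SE 1.39, adjusted p 0.112). In both, every CMm-EV library was below every CMi-EV library, and counts in CMm-EV ran from 0 to 136 and from 0 to 52. hsa-miR-302b-5p, hsa-miR-302d-5p, hsa-miR-367-3p and hsa-miR-367-5p passed the filter in neither group and were not tested. In CMi-EV hsa-miR-302d-5p missed it only through CMi-EV 2, where it had no count. Without that library it was tested and called lower. Without CMm-EV 1 the log2 fold change of hsa-miR-302b-3p was -5.97, and without CMm-EV 2 hsa-miR-302d-3p lost its call (adjusted p 0.0541, in a range of 1.33e-06 to 0.0541). hsa-miR-302c-3p was called with library size alone, without a filter, with DESeq2 and with dispersions from all 12 libraries (adjusted p 0.0498, 4.18e-05, 0.00324 and 0.0103, in a range up to 0.252). The last of these also called hsa-miR-302a-3p (adjusted p 0.0424, in a range of 0.0424 to 0.357). With a library left out, the log2 fold change ran from -4.02 to -2.38 for hsa-miR-302a-3p and from -6.47 to -3.98 for hsa-miR-302c-3p.

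Over the whole course, CMm-EV against hiPSC-EV, which shares its libraries with the first and last steps, hsa-miR-302b-3p fell by 10.46 on the log2 scale (SE 0.54, adjusted p 8.86e-05), a 1409.5-fold drop, and hsa-miR-302a-5p fell by 8.78 (SE 0.30, adjusted p 1.39e-05), a 439-fold drop. hsa-miR-302c-3p fell by 9.53 (SE 1.15, adjusted p 0.00200) and hsa-miR-302a-3p fell by 6.58 (SE 1.00, adjusted p 0.00325), a 96.0-fold drop. Members with no count in CMm-EV were at least 508-fold lower for hsa-miR-302c-5p, at least 223-fold lower for hsa-miR-302d-5p and at least 62.7-fold lower for hsa-miR-367-3p. Counts went from 9222 to 1 for hsa-miR-302d-3p, a ratio of 8047 (95% counting interval 1444 to 317871), and from 1097 to 1 for hsa-miR-302b-5p, a ratio of 957 (171 to 37842). Both ratios rest on 1 count in CMm-EV 1, and the fits gave log2 fold changes of -12.42 and -9.33. Without CMm-EV 1 no count is left in CMm-EV, and with another library left out the values reached -11.39 and -8.44.

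All 9 tested members were called lower in that comparison, where 37.5% of the 336 tested miRNA were. The median was -10.46 over the 9, or -8.99 with bounds, beside -1.53 over all tested. Again hsa-miR-302b-3p and hsa-miR-302a-5p alone passed the filter in both groups. The log2 fold change of hsa-miR-302a-3p was -7.34 without CMm-EV 2 and -5.77 without CMm-EV 1, and that of hsa-miR-302c-3p ran from -11.73 without CMm-EV 3 to -8.61 without CMm-EV 2. Without CMm-EV 1, hsa-miR-302b-3p had -11.08. An F-test for any difference over the 4 groups, on all 12 libraries, called 9 of 9 tested members, with adjusted p from 4.24e-07 to 0.0159, where 50.1% of all tested miRNA were called. hsa-miR-367-5p was tested in none of these comparisons.

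**Figure D2:**
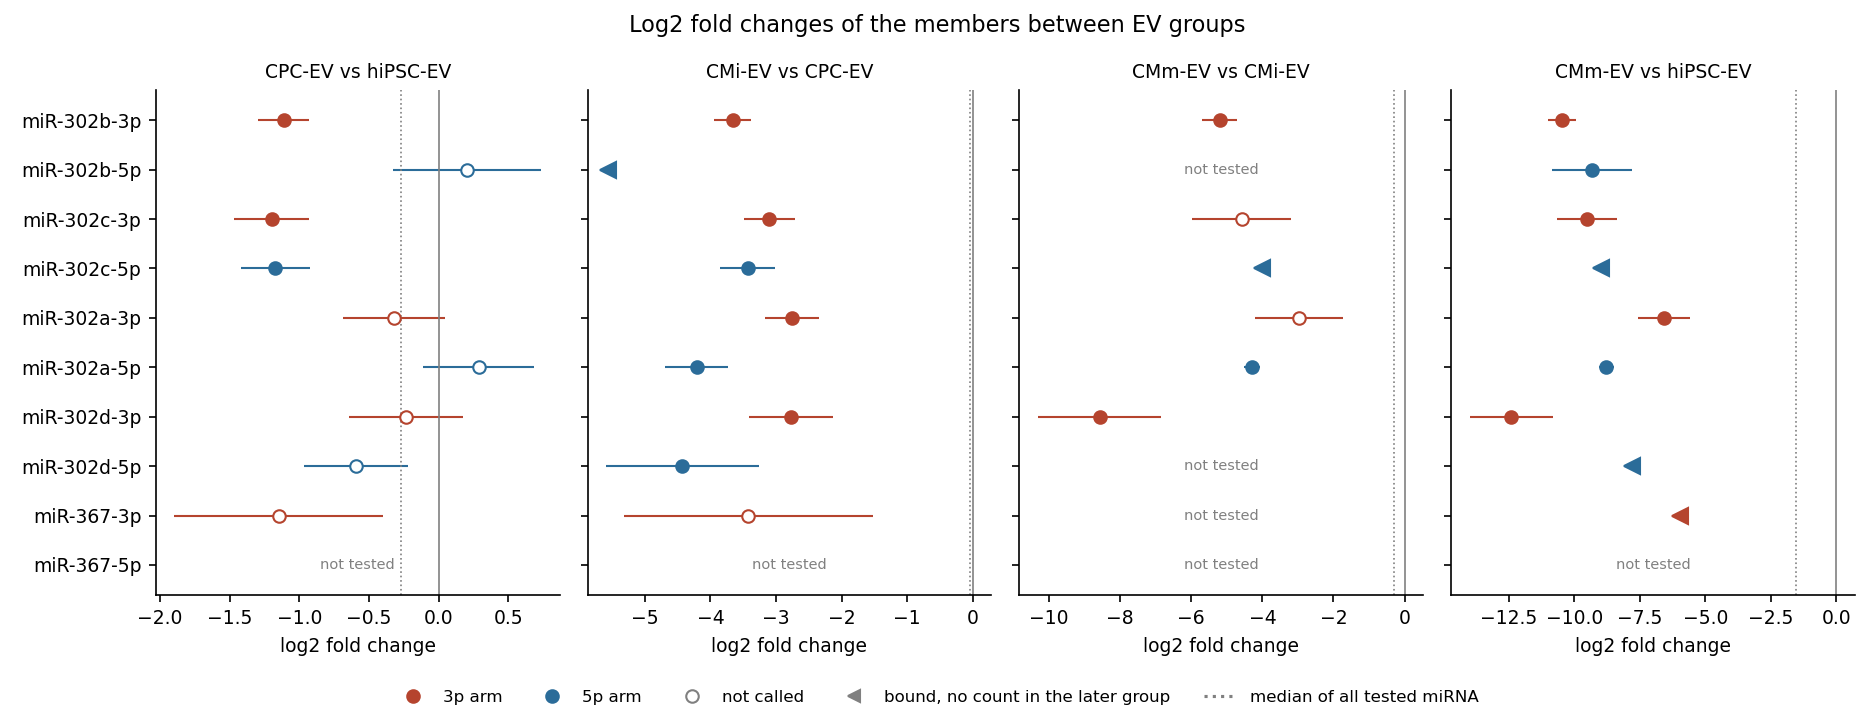
Log2 fold change of each tested member in 4 comparisons, with bars of 1 standard error. Filled points were called, triangles are bounds for members with no count in the later group, and dotted lines mark the median of all tested miRNA, from -0.05 for CMi-EV against CPC-EV to -1.53 for CMm-EV against hiPSC-EV.

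In the plot of fold changes the points of the first step lie close to the dotted median line and those of the other comparisons lie far to the lower side of it. The level of all tested miRNA moved with the scaling. The median over all tested was -0.27, -0.05, -0.29 and -1.53 in the 4 comparisons in the order given. With library size alone it was -0.10, -0.52, -0.91 and -1.97, and with median-of-ratios scaling -0.15, -0.03, -0.20 and -1.20. The called members were lower under each scaling.

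Which arm of a hairpin was counted can be compared within a library, so that scaling between libraries has no part in it. The hairpin of hsa-miR-302a gave almost only its 5p arm. Its 3p percentage was 1.06, 0.876 and 1.16 in hiPSC-EV, 0.884, 0.555 and 0.777 in CPC-EV, and 1.94, 1.48 and 2.22 in CMi-EV. In CMm-EV it was 0, 9.44 and 4.15, where the count of 0 of 350 in CMm-EV 1 has an exact 95% upper limit of 1.05% and the interval of CMm-EV 2 was 7.98% to 11.1%. The CPC-EV values ended at 0.884 and the CMi-EV values began at 1.48, above every hiPSC-EV and CPC-EV library, and the CMm-EV libraries fell on both sides.

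The hairpin of hsa-miR-302b was the mirror image, with 3p means of 99.9%, 99.8%, 100% and 99.9% in the 4 groups. hsa-miR-302c gave both arms, with 3p means of 72.5% ± 6.17 in hiPSC-EV, 73.0% ± 2.16 in CPC-EV and 76.8% ± 4.69 in CMi-EV, ranges that overlapped. hsa-miR-302d was the most uneven within a group, at 33.3%, 53.2% and 70.0% in hiPSC-EV and 48.2%, 76.3% and 48.3% in CPC-EV. The CMi-EV libraries, at 83.7%, 100% and 77.3%, lay above these, with 46 counts behind the 100%. hsa-miR-367 gave its 3p arm in 99.7% ± 0.469 of counts in hiPSC-EV and had no 5p count in other groups.

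The 3p percentages were tested across groups with an exact permutation test of the F ratio over libraries, for hairpins and groups with at least 50 counts in each library, adjusted over the 4 hairpins tested. The adjusted p was 0.695 for hsa-miR-302a and hsa-miR-302b over 12 libraries (p 0.180 and 0.347, smallest possible 6.49e-05). It was 0.70 for hsa-miR-302c over 9 libraries (p 0.539) and for hsa-miR-302d over 6 (p 0.70), where the smallest possible p is 0.10, so that the last could not reach 0.05. CMm-EV 1, with its 0 of 350, decided the result for hsa-miR-302a. Without it the adjusted p was 0.000519 for hsa-miR-302a, in a range of 0.000519 to 0.882 over 16 alternatives, and 0.0416 for hsa-miR-302b, in a range of 0.00442 to 0.882.

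**Figure D3:**
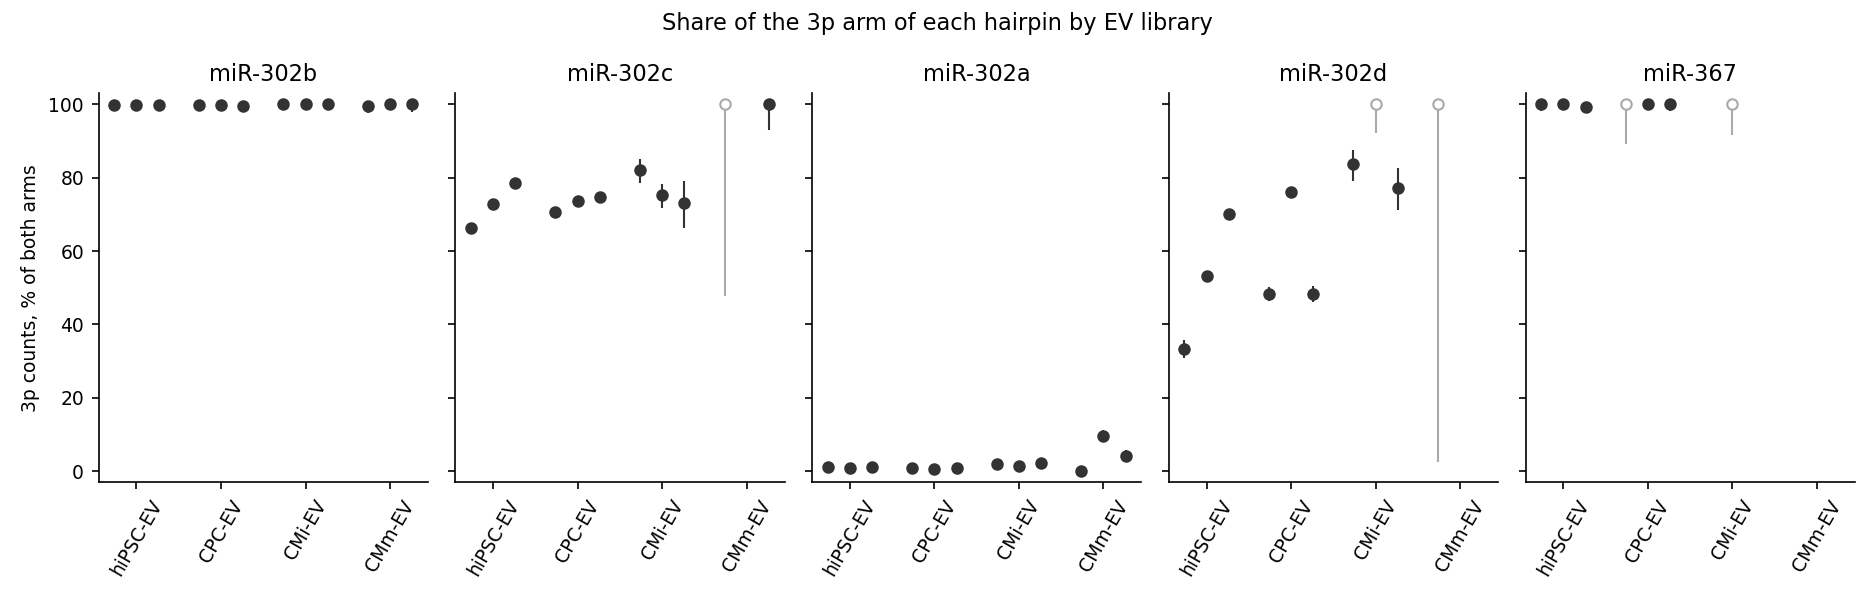
Percent of a hairpin's mature counts that came from its 3p arm, 1 panel per hairpin and 1 point per library, with exact 95% intervals. Open grey points hold under 50 counts. hsa-miR-302a lies near 0, hsa-miR-302b near 100, and hsa-miR-302d spreads from 33.3% to 76.3% within hiPSC-EV and CPC-EV.

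The plot of arm percentages shows the opposite arm use of hsa-miR-302a and hsa-miR-302b at every stage. Taken over the cluster, 3p arms held 62.1%, 56.7% and 55.4% of the counts in hiPSC-EV and 41.1%, 26.03% and 45.9% in CPC-EV. They held 39.6%, 49.1% and 44.8% in CMi-EV and 41.5%, 27.8% and 23.2% in CMm-EV. The 3 hiPSC-EV libraries were above all 9 others, which overlapped among themselves. The ratio of hsa-miR-302a-5p to hsa-miR-302b-3p counts was 0.612, 0.780 and 0.836 in hiPSC-EV and 1.48, 3.00 and 1.21 in CPC-EV. It was 1.66, 1.09 and 1.32 in CMi-EV and 1.44, 3.57 and 4.94 in CMm-EV. hsa-miR-302b-3p thus exceeded hsa-miR-302a-5p in 3 of 12 libraries, those of hiPSC-EV, which is a description and was not tested.

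Among the 3p arms, hsa-miR-302b supplied 95.9% ± 1.01 of counts in hiPSC-EV and 95.2% ± 0.856 in CPC-EV. It supplied 92.1% ± 1.32 in CMi-EV and 79.2% ± 16.2 in CMm-EV, where the libraries held 97.6%, 72.9% and 67.0%. hsa-miR-302a supplied 0.742% ± 0.161, 1.25% ± 0.335, 2.43% ± 0.787 and 13.8% ± 13.6 in the same order. hsa-miR-302c supplied 2.57% to 6.88% by group mean, hsa-miR-302d 0.134% to 1.84% and hsa-miR-367 at most 0.123%. The 6.88% was that of CMm-EV, where the libraries held 2.01%, 0% and 18.6% for hsa-miR-302c. The CMm-EV percentages rest on 249, 502 and 279 counts. The exact permutation test of each hairpin's 3p share over 12 libraries, adjusted over 5 hairpins, gave 0.273 for hsa-miR-302a, hsa-miR-302b and hsa-miR-302d, 0.588 for hsa-miR-367 and 0.982 for hsa-miR-302c. Without CMm-EV 1 it gave 0.000649 for hsa-miR-302a and hsa-miR-302b, and without CMi-EV 2 it gave 0.00130 for hsa-miR-302d, the lowest values over 15 alternatives, whose highest were 0.317, 0.399 and 0.317.

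The members were nearly the whole of the AAGUGCU seed in these vesicles. Of 9 other entries with that seed, 4 reached 5 CPM in each library of some group: hsa-miR-372-3p, hsa-miR-373-3p, hsa-miR-302e and hsa-miR-520a-3p. The members supplied from 99.4% of the seed's counts in CPC-EV 2 to 100% in CMm-EV. The seed's percentage of all miRNA counts went from 21.04, 17.8 and 17.6 in hiPSC-EV to 0.0253, 0.00800 and 0.00550 in CMm-EV. For the seed of hsa-miR-367-3p the order was the other way round, since the member supplied at most 0.121% of the counts in any library and hsa-miR-92a-3p, hsa-miR-92b-3p, hsa-miR-363-3p, hsa-miR-25-3p and hsa-miR-32-5p supplied the rest. That seed held 23.7%, 22.3% and 18.8% of miRNA counts in hiPSC-EV and 2.19%, 1.78% and 1.46% in CMm-EV.

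Of the other AAGUGCU entries, 1 of 4 tested was called lower in CPC-EV against hiPSC-EV, hsa-miR-520a-3p, at least 15.3-fold lower (adjusted p 0.00939). None of 3 was called in CMi-EV against CPC-EV, where 2 had an unadjusted p under 0.05 in edgeR and DESeq2 called 1. hsa-miR-372-3p went from 258 ± 176 CPM in CPC-EV to 5.93 ± 10.3 in CMi-EV (log2 fold change -5.43, SE 1.54, adjusted p 0.0638). All 3 tested were lower in CMm-EV against hiPSC-EV, among them hsa-miR-372-3p, at least 48.7-fold lower (adjusted p 0.000696). Other miRNA with the seed of hsa-miR-367-3p were called lower in 1 of 5, 2 of 4, 2 of 4 and 4 of 5 tested in the 4 comparisons, with hsa-miR-363-3p called each time, at log2 fold changes of -1.62, -1.21, -2.42 and -5.81.

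Clusters known from pluripotent cells beside this one moved as follows. The miR-371 to miR-373 cluster, with 3, 3, 1 and 2 entries tested, was called lower in 0, 1, 1 and 2 of them. In the first comparison none had an unadjusted p under 0.05 in edgeR and DESeq2 called none. hsa-miR-371a-5p stood at 1115 ± 444 CPM in hiPSC-EV and 1105 ± 125 CPM in CPC-EV, against 101 ± 21.2 CPM in CMi-EV and 0.807 ± 1.40 CPM in CMm-EV. Its level overlapped over the first step, with a log2 fold change of 0.42 (adjusted p 0.316). Of all tested miRNA 16.0%, 14.0%, 10.1% and 37.5% were called lower in the 4 comparisons. The miR-17-92 cluster was called lower in 2 of 9, 2 of 9, 1 of 5 and 4 of 9, and the miR-106a to miR-363 cluster in 3 of 11, 2 of 6, 2 of 4 and 10 of 11. These lists share hsa-miR-92a-3p, whose mature form comes from both loci, at log2 fold changes of -0.09, -0.82, -1.62 and -3.07 with adjusted p of 0.677, 0.0211, 0.00101 and 9.00e-05. DESeq2 called 1, 3, 2 and 7 entries of miR-17-92 lower in the 4 comparisons, and 54, 48, 33 and 134 of all tested miRNA. In the first step hsa-miR-20a-5p fell by 1.50 (adjusted p 0.0136) and hsa-miR-106a-5p fell by 1.67 (adjusted p 0.00775). In the last comparison the median was -4.24 for miR-17-92 and -4.73 for miR-106a to miR-363 with bounds, beside -8.99 for the members. It was -8.68 with bounds for the 2 tested entries of miR-371 to miR-373.

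Markers of other cells also changed between the groups, and not all in the direction of the members. All 6 cardiomyocyte miRNA of the list had a count somewhere, and their summed CPM was 64.8, 46.4 and 69.5 in hiPSC-EV and 754, 856 and 1515 in CPC-EV. It was 52464, 75364 and 20729 in CMi-EV and 37699.7, 51274 and 215489.8 in CMm-EV, most of it hsa-miR-1-3p. They were called higher in 2 of 2, 4 of 4 and 6 of 6 tested in CPC-EV against hiPSC-EV, CMi-EV against CPC-EV and CMm-EV against hiPSC-EV, where 39 of 338, 42 of 292 and 54 of 336 tested miRNA were. In each of these comparisons some of them passed the filter through the later group alone. In CPC-EV against hiPSC-EV that was hsa-miR-133a-3p, whose lowest hiPSC-EV library held 4.04 CPM, and in the others hsa-miR-133b was an example. The counts there are therefore no support for a rise of the list. None of 6 passed in CMm-EV against CMi-EV, where none had an unadjusted p under 0.05 in edgeR and DESeq2 called none. hsa-miR-208b-3p had no count in hiPSC-EV or CPC-EV and hsa-miR-499a-5p none in CPC-EV. The cluster members summed to 275699, 313193 and 378309.7 CPM in hiPSC-EV and 726, 478 and 491 CPM in CMm-EV.

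The 4 pluripotency entries outside the cluster are entries of the miR-371 to miR-373 cluster already described, so they are not a further marker. They summed to 891, 1262 and 1810.5 CPM in hiPSC-EV and 1290.1, 1758 and 1194 CPM in CPC-EV, then to 121, 164 and 78.7 CPM in CMi-EV and 2.42, 0 and 0 CPM in CMm-EV, most of it hsa-miR-371a-5p. Endoderm and liver entries, led by hsa-miR-375-3p in CPC-EV and by hsa-miR-192-5p in the other groups, summed to 1297 to 2244 CPM in hiPSC-EV and 6284 to 8840.0 CPM in CPC-EV, then to 3459 to 7196 CPM in CMi-EV and 2236 to 4611 CPM in CMm-EV. In the first step 3 of 4 were called higher, where 39 of 338 tested miRNA were, among them hsa-miR-375-3p at 67.2 ± 38.6 CPM in hiPSC-EV and 4019.6 ± 1055 in CPC-EV, and 1 of 4 was called lower in each of the next steps. In that first step hsa-miR-122-5p passed the filter through CPC-EV alone. Blood entries, 4 in the table, summed to 5291 to 8657 CPM in hiPSC-EV and 726 to 2075 CPM in the later groups. Nearly all of it was hsa-miR-486-5p, with means of 6996 CPM in hiPSC-EV and 953 CPM in CPC-EV. It was the 1 entry tested in the first step, where it was called lower. The paper lists miR-486 with miRNA of striated muscle. hsa-miR-451a had means of 3.15 ± 2.76 CPM in hiPSC-EV and 23.7 ± 21.2 CPM in CPC-EV, with overlapping ranges. hsa-miR-144-3p had counts in CPC-EV 2 alone, and hsa-miR-150-5p in hiPSC-EV alone. The part of these lists in the levels of the members was not tested.

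**Figure D4:**
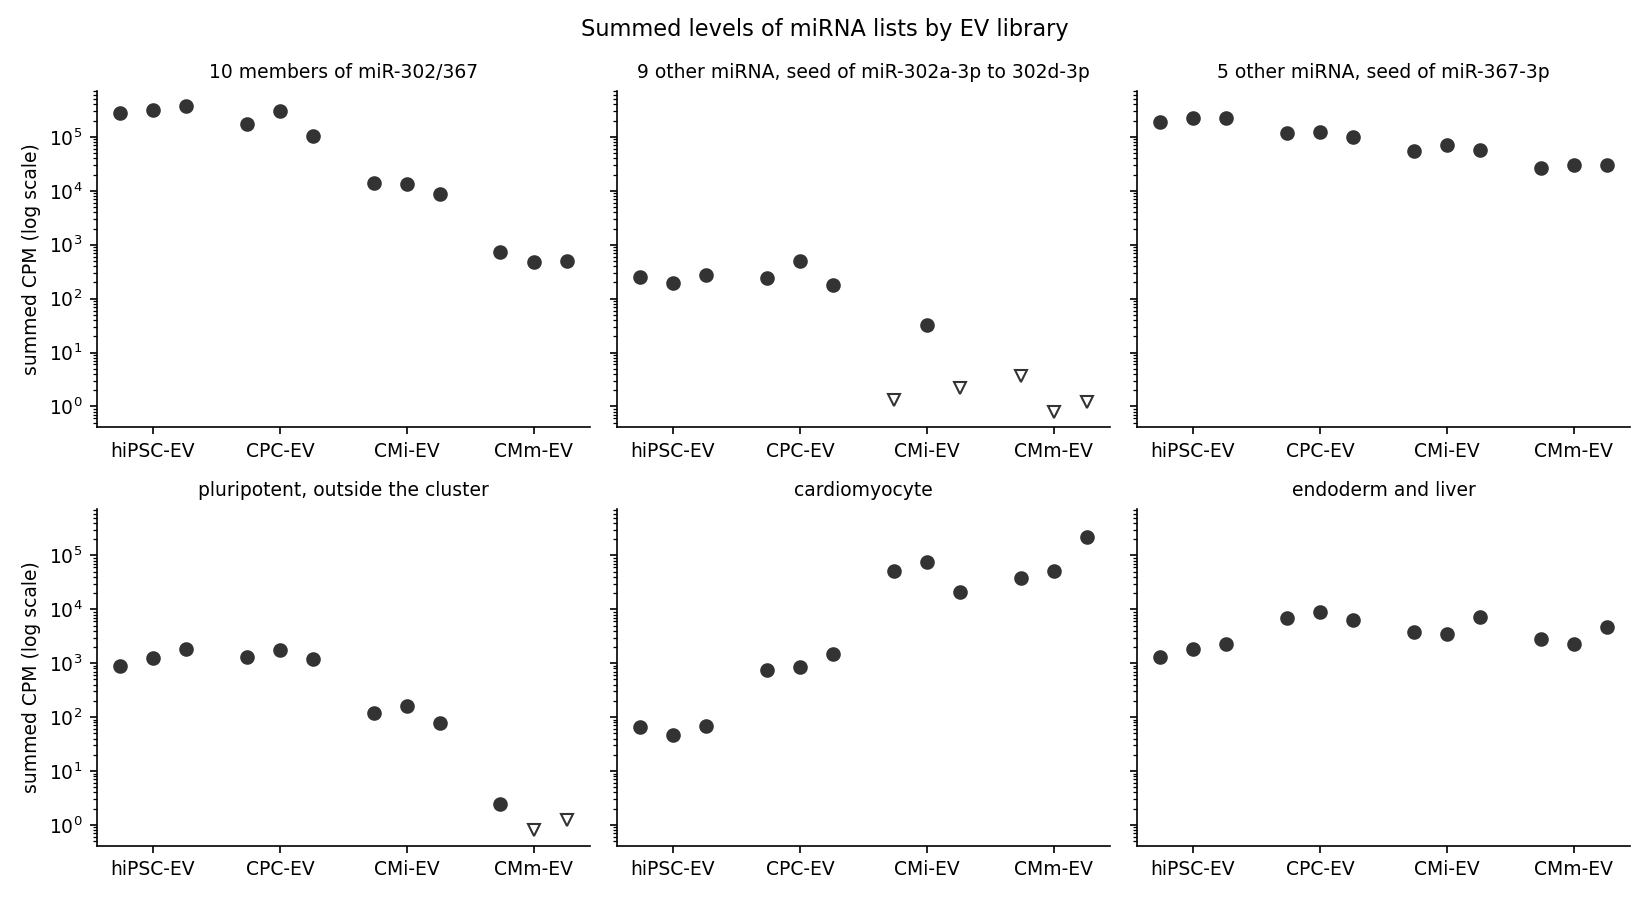
Summed CPM of the cluster members and 5 other lists in each library, on a log axis, with open triangles where a list had no count, drawn at 3 counts. The members and the pluripotency entries outside the cluster are highest in hiPSC-EV and CPC-EV and lowest in CMm-EV, while the cardiomyocyte entries run the other way.

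The plot of the lists sets the fall of the members beside these sums. Transcript fragments in the same libraries give levels for genes tied to the cluster, in CPM of the transcript table. POU5F1, which encodes OCT4, stood at 362.7, 184 and 85.7 in hiPSC-EV, 71.5, 0.592 and 0 in CPC-EV, and 0 in CMi-EV and CMm-EV. LIN28A, a pluripotency RNA-binding protein, stood at 224, 157 and 169.8 in hiPSC-EV, 122, 328 and 552 in CPC-EV, then at 108, 20.01 and 9.13 in CMi-EV, and 0 in CMm-EV. NANOG stood at 52.0, 18.8 and 5.34 in hiPSC-EV, above all CPC-EV and CMi-EV libraries, which held 0.249 or less, and at 0, 49.6 and 3.40 in CMm-EV. SOX2 stood at 52.0, 13.2 and 15.2 in hiPSC-EV, while CPC-EV reached 42.1, CMi-EV 41.1 and CMm-EV 6.20, each with at least 1 library at 0. LARP7 was at 11.0 or less. MIR302CHG and the 5 hairpin genes have no entry in the transcript table, and whether the pipeline leaves them out or found no read of them is not known. The miRNA table does hold the precursors hsa-mir-302a, hsa-mir-302b, hsa-mir-302c and hsa-mir-302d, with at most 7.0 expected counts in a library and none in CMi-EV or CMm-EV.

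Over the 12 libraries, the members' profiles were alike. Pearson's r of log2(CPM + 1) between the summed 3p and the summed 5p arms was 0.987, and over the 36 pairs of the 9 tested members it ran from 0.75 for hsa-miR-302a-3p with hsa-miR-302b-5p to 0.993 for hsa-miR-302b-3p with hsa-miR-302c-5p, with a median of 0.889. The 5 other tested miRNA most like the summed 3p arms were hsa-miR-200c-3p (r 0.995), hsa-miR-92a-3p (0.993), hsa-miR-182-5p (0.987), hsa-miR-1323 (0.984) and hsa-miR-371a-5p (0.981). The points of these correlations share the 4 groups and each library's depth and scaling, so the values describe likeness and carry no test. hsa-miR-200c-3p stood at 1974 ± 541 CPM in hiPSC-EV and 446 ± 215 CPM in CPC-EV, falling to 49.3 ± 7.18 CPM in CMi-EV and 0.403 ± 0.699 CPM in CMm-EV.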

How the data were processed

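Small RNA of 12 EV libraries was analysed from the tables of the authors. Values deposited by the authors are expected counts per miRNA, of which 9.11% of the nonzero ones were not whole, rounded here to whole numbers. The RPM deposited by the authors were used for the library totals of 1 alternative. The range of totals per library is given above. The submitters' processing notes name edgeR 3.24.0.

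Pairwise tests used the quasi-likelihood test of edgeR 4.0.16 in R 4.3.3, two-sided, with TMM within the 6 libraries and Benjamini-Hochberg adjustment over all tested miRNA, and the F-test used all 12. A miRNA was tested if some group had all 3 libraries at 5 CPM or more. Shares were tested with exact permutation over libraries (Python 3.11.15, numpy 2.4.6, scipy 1.17.1, pandas 2.3.3, matplotlib 3.10.9).

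Alternatives were median-of-ratios scaling, library size alone, RPM totals, no filter, filterByExpr, DESeq2 1.42.0, dispersions from all 12 libraries, a replicate block, other count minimums, the log2 ratio of the arms with 0.5 added to each, both arms together, unrounded counts, and each library left out. The members and lists were chosen with earlier results of these data known. Named miRNA are the 10 members, entries that share a member's seed and reach 5 CPM in each library of a group, up to 4 of each fixed list, the 5 most like the summed 3p arms, and genes tied to the locus in the transcript table.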

Additional observations from a re-analysis of the deposited data

How the results depend on the processing

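Of 462 values of member fold changes under alternatives, 425 kept their direction and their side of the thresholds, 24 lost a call, 6 gained one and 7 changed sign. All sign changes were in CPC-EV against hiPSC-EV, on members that were not called: hsa-miR-302a-3p (0.012 without CPC-EV 3), hsa-miR-302a-5p (-0.21 without CPC-EV 2), hsa-miR-302b-5p (-0.0084 with dispersions from all 12 libraries, -0.03 without hiPSC-EV 1, -0.21 without CPC-EV 3) and hsa-miR-302d-3p (0.13 without hiPSC-EV 3, 0.04 without CPC-EV 3). With a library left out these ran from -0.50 to 0.012, -0.21 to 0.66, -0.21 to 0.52 and -0.54 to 0.13. Members called lower there numbered 3, but 1 with dispersions from all 12 libraries and 0 to 3 with a library left out. For the other comparisons they numbered 6 to 9 in CMi-EV against CPC-EV, 3 to 5 in CMm-EV against CMi-EV and 9 throughout in CMm-EV against hiPSC-EV with a library left out. The F-test called 8 to 9.

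Replicate numbers did not pair the libraries: correlations between libraries of the same number in different groups ran from -0.12 to 0.0975, and the best match had the same number in 12 of 36 checks. A replicate block, which spends degrees of freedom on that number, left 1 member called in CPC-EV against hiPSC-EV (39 miRNA called in all, against 93) and 2 in CMm-EV against CMi-EV (17 in all, against 41). Both arms of hsa-miR-302c lost their calls in the first of these comparisons, and hsa-miR-302c-5p and hsa-miR-302d-3p in the second.

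In CMm-EV against CMi-EV filterByExpr called 27 miRNA in all and leaving out CMm-EV 2 called 20. Calls split into 16 higher and 25 lower, but 10 and 42 with library size alone and 12 and 33 with RPM totals. In CMi-EV against CPC-EV the split was 42 and 41, but 31 and 56 with library size alone and 38 and 64 without CPC-EV 3. In CPC-EV against hiPSC-EV it was 39 and 54, but 40 and 89 without hiPSC-EV 1 and 22 and 17 with the replicate block.

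Of 139 adjusted p of shares, 130 stayed on their side of 0.05 and 9 passed it. For the 3p percentage, 1 hairpin passed with a higher count minimum (hsa-miR-302b, 0.0286), 1 with the log2 ratio (hsa-miR-302b, 0.00442), and 0 to 2 with a library left out. For the share of 3p counts, 2 passed with a higher count minimum (hsa-miR-302a and hsa-miR-302b, 0.0357) and 0 to 2 with a library left out. The cause was not tested.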
